A study of Mus musculus with 2 samples.

Results

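Glycolysis and hypoxia-inducible genes are described here as a list of 41 mouse genes, taken by symbol from the platform annotation of the arrays. They are 3 subunits of hypoxia-inducible factor (HIF), 3 glucose and lactate transporters, 15 glycolytic enzymes, 2 PFK-2 enzymes, 4 pyruvate dehydrogenase kinases and 14 HIF target genes outside glycolysis. Of the 41 genes, 38 had a probe set of their own among the 18194 genes that the arrays named singly, and 33 were measured, which means that the brighter of the 2 arrays reached a floor of 8.07 units, the median of all deposited values.

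Total RNA came from NIH3T3, a line of immortalised fibroblasts derived from mouse embryos and grown in DMEM with fetal bovine serum, and was read on 2 arrays. Cells of both groups were infected with a retrovirus that expresses a short hairpin RNA, directed in one group against CCR4b (Cnot6l), a deadenylase subunit of the CCR4-NOT complex that shortens mRNA poly(A) tails, and serving as control RNAi in the other. Each group holds 1 array, so the values below have no replicate error, no p-value could be computed, and higher or lower refers to this pair of arrays. The hairpin sequence, the number of hairpins, the time after infection and the oxygen level of the cultures are not stated in the labels. The comparison sets transcript signals after depletion of the deadenylase beside those of the control.

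Glycolysis turns glucose into pyruvate, and lactate dehydrogenase turns pyruvate into lactate that leaves the cell. HIF is a pair of an oxygen-regulated alpha subunit and the stable partner ARNT; prolyl hydroxylases mark the alpha subunit for destruction when oxygen is present. When the alpha subunit is spared, HIF binds the short motif ACGTG or GCGTG in target promoters and drives many glycolytic genes together with genes of angiogenesis, mitophagy and collagen hydroxylation. Because the alpha subunit is controlled mainly as a protein, mRNA arrays do not read HIF activity directly.

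Cnot6l, the targeted gene, was lower on each of its 4 probe sets, with 102 and 43.0 units (control first, as throughout) on the brightest. The 3'/5' signal ratio of Actb, a sign of RNA integrity, was 1.35 and 1.46, and that of Gapdh 0.824 and 0.819. All 8 fibroblast markers were measured, with summed signals of 15909 and 17606 units. Of the other cell types checked, 2 of 5 epithelial markers were measured, with sums of 42.9 and 49.3 units over all 5. Leukocyte markers summed to 30.7 and 15.1 units (1 of 3 measured), and 0 of 3 endothelial markers reached the floor. Muscle and adipocyte markers summed to 54.1 and 69.1 units, most of it Fabp4. The part of these differences in the results was not tested. In bulk RNA, fewer cells that express a gene and less RNA per cell cannot be told apart.

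Of the 33 measured genes, 15 (45.5%) were at least 1.5-fold higher after CCR4b RNAi, where 11.3% of all 11915 measured genes were, and 0 were as much lower, where 14.6% were. At 2-fold, 8 (24.2%) were higher, against 3.74% of all genes, and 0 were lower, against 4.48%. The median log2 ratio of CCR4b RNAi over control RNAi was 0.41 in the list and -0.070 over all measured genes. Individual log2 ratios ran from -0.43 for Egln3 to 2.36 for Depp1, so the list held genes with differences of several fold beside genes near equal signal. With the arrays scaled to their own medians, the median of all genes stood at -0.16 and 11 of 33 members were at least 1.5-fold higher. Among all genes, that scaling left 9.09% higher and 19.0% lower by 1.5-fold or more.

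The spread between genes was set against genes of like signal, by sorting the measured genes into 10 classes of equal size on mean signal. Of the 33 members, 21 (63.6%) lay more than 1 robust SD (scaled median absolute deviation) above the median of their class, where 16.6% of all measured genes did. On the other side, 0 members lay more than 1 robust SD below it, against 16.2% of all genes. The robust SD was between 0.36 and 0.64 log2 units in the classes that held members, and 17 of 33 members were above the 90th percentile of their class. These spreads contain real differences between the cultures as well as measurement error.

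**Figure D1:**
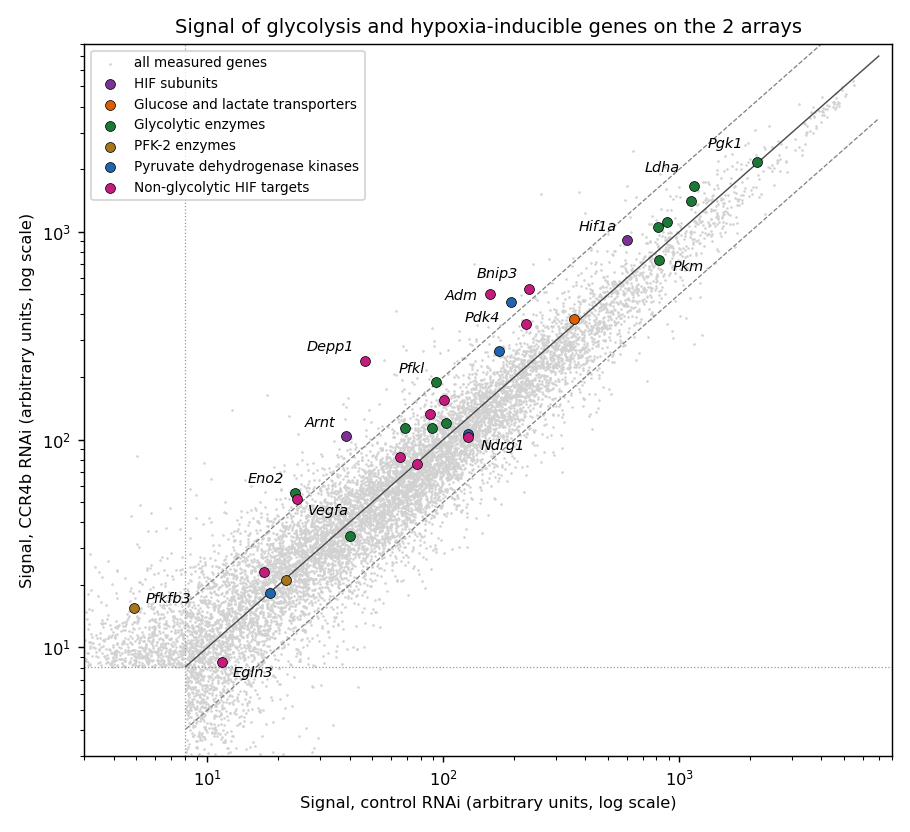
Signal of each measured gene in control RNAi (x axis) and CCR4b RNAi (y axis), in arbitrary units on log axes, with the listed genes coloured by role over all measured genes in grey. The solid line marks equal signal, the dashed lines 2-fold differences and the dotted lines the floor of 8.07 units; grey points below 3 units on an axis are not drawn. Depp1, Adm, Arnt, Pdk4, Eno2, Bnip3, Vegfa and Pfkl lie above the upper dashed line, and Pgk1 lies on the line of equal signal.

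Several probe sets for one gene were the nearest thing to a repeat reading, although they share an array and are not replicates. The members had 83 probe sets of their own, of which 70 were measured; 30 of these (42.9%) were at least 1.5-fold higher, against 12.7% of all 21539 measured probe sets with 1 gene symbol. Only 1 of the 70, a probe set of Ndrg1, was at least 1.5-fold lower, against 14.4% of all. Of the 15 members at least 1.5-fold higher, 10 had more than 1 measured probe set, and all 10 were above 0 on every one. Their brightest probe set was above 0 by selection, so only their other probe sets are a further reading. Of the 19 members with several measured probe sets, 12 kept to one side of 0, and Slc2a1, Pfkp, Aldoa, Pgk1, Egln1, Ndrg1 and Ero1a did not. How many of all genes keep to one side was not counted.

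**Figure D2:**
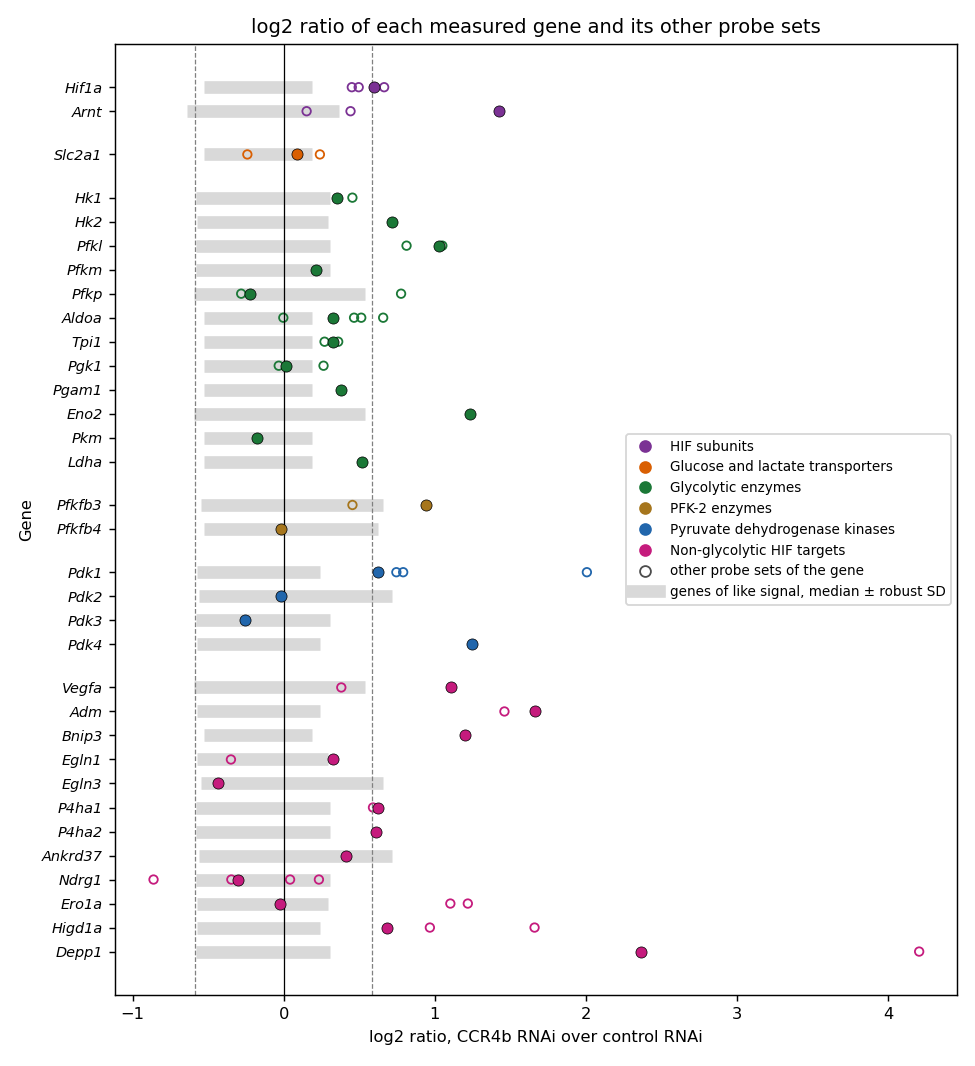
The log2 ratio of CCR4b RNAi over control RNAi (x axis) for each measured gene (y axis), grouped by role. Filled circles are the brightest probe set, which stands for the gene, open circles are its other measured probe sets, grey bars span 1 robust SD on either side of the median of genes of like signal, and dashed lines mark 1.5-fold. Depp1 has the highest ratio (2.36, with 4.20 or more on its second probe set), and the filled circle of Ero1a lies at -0.024 while both its open circles exceed 1.

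Promoters of 5 members are shown because they run from 5.15-fold higher to near equal signal, with and without the HIF-binding core. Each is the 250 bases before the gene's start in RefSeq (GRCm38.p6), read 5' to 3' on the gene's strand. Capitals mark ACGTG or GCGTG on either strand, which read CACGT or CACGC on the opposite one. The palindrome CACGTG, an E-box core that other factors also bind, holds ACGTG on both strands. The windows are Depp1 at chr6:116650434-116650683 (plus strand), Adm at chr7:110627407-110627656 (plus), Bnip3 at chr7:138909507-138909756 (minus), the first of the 2 Ldha starts at chr7:46845554-46845803 (plus) and Pgk1 at chrX:106186850-106187099 (plus).
Depp1: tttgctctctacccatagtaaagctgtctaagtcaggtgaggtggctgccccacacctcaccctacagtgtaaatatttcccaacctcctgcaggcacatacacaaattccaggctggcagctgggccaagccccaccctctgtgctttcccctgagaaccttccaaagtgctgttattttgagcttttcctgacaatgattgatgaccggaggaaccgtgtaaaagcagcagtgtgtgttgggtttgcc
Adm: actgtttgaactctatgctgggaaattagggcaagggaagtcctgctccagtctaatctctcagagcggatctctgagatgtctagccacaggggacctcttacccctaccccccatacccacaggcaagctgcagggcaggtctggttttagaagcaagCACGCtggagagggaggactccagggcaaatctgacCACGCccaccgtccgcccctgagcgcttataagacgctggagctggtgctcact
Bnip3: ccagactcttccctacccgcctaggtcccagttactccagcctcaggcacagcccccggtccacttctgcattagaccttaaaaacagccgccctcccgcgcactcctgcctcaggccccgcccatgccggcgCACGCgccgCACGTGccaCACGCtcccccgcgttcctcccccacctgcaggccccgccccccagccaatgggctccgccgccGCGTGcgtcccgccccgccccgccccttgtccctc
Ldha: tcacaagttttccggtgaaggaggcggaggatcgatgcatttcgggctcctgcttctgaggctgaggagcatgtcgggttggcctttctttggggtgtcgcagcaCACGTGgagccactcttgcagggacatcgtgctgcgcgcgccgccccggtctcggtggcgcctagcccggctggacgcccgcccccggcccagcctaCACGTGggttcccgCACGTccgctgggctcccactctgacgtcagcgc
Pgk1: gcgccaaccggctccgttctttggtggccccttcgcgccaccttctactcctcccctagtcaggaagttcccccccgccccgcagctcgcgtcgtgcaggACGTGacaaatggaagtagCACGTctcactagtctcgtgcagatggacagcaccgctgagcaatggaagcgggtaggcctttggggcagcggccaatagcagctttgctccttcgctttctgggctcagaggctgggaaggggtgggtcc

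The printed windows were chosen by ratio and by matches, so their counts cannot show whether matches follow the ratio. Depp1, 5.15-fold higher, had 0 matches, Adm (3.17-fold) had 2 of GCGTG, and Bnip3 (2.29-fold) had 5, of which 2 are the strands of 1 CACGTG. Ldha (1.43-fold) had 5 matches of ACGTG, of which 4 are the strands of its 2 CACGTG sites, and Pgk1 (1.01-fold) had 2 of ACGTG. A RefSeq promoter was found for 32 of the 33 measured members, in 44 windows because some genes have several starts. Either motif was present in 77.3% of these windows, in 54.8% of the 12352 windows of all measured genes and in 38.6% of all 32841 windows. ACGTG alone was in 52.3% of the members' windows and 21.5% of those of measured genes, and GCGTG alone in 52.3% and 43.5%. Within the list, ACGTG was in 44.4% of 18 windows of members at least 1.5-fold higher and in 57.7% of 26 windows of the other measured members. GCGTG lay the other way, in 61.1% and 46.2% of the same windows, and either motif was in 77.8% and 76.9%. Some genes had several windows, partly overlapping. Counted by gene in the same order, ACGTG was in 7 of 15 and 13 of 17. GCGTG was in 11 of 15 and 11 of 17, and either motif in 13 of 15 and 16 of 17. The median GC content was 62.0% in the members' windows and 59.6% in those of measured genes. A match is a description of these letters and does not show binding.

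Hif1a and Arnt, the measured HIF subunits of the list, were both higher. On its brightest probe set Hif1a, the oxygen-regulated subunit, gave 602 units (control) and 909 units (CCR4b RNAi), a 1.51-fold difference (log2 ratio 0.60). Its next probe sets gave 1.58-fold and 1.37-fold, and the dimmest, from under the floor to 11.4 units, at least 1.41-fold. All 4 thus pointed the same way, with the 1.37-fold reading under 1.5-fold and the dimmest giving only a lower limit. Arnt, the partner subunit, read 38.6 and 104 units (2.68-fold higher), but 1.36-fold and 1.11-fold on its other measured probe sets, so the size of its difference depends on the probe set. Epas1, which encodes HIF-2 alpha, stayed below the floor on both arrays.

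A further list held 13 measured genes, mainly other HIF subunits, the enzymes that hydroxylate or ubiquitinate HIF, its coactivators and their competitor Cited2. Of these, 0 were at least 1.5-fold higher, against 11.3% of all genes, and 0 were as much lower, against 14.6%. Their median log2 ratio was -0.15. The further subunits Hif3a and Arnt2 had log2 ratios of 0.13 and -0.22 on their brightest probe sets. Vhl, which encodes the ubiquitin ligase subunit that binds hydroxylated HIF, read 54.1 and 62.0 units (1.15-fold higher). Hif1an, an asparagine hydroxylase of HIF, went in opposite directions on its brighter probe sets, with log2 ratios of 0.49 and -0.46.

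Glycolytic members were higher at several but not all steps, and less so than the listed HIF targets outside the pathway. Of the 15 measured transporters, glycolytic enzymes and PFK-2 enzymes, 4 (26.7%) were at least 1.5-fold higher, against 11.3% of all genes, and 0 were as much lower, against 14.6%. Of the 15, 12 were above the median of genes of like signal. Their median log2 ratio was 0.33 (1.25-fold). Hk2, Pfkl and Eno2 were the enzymes past 1.5-fold, and Pfkfb3 passed it as a bound. Pfkfb3 reached the floor only on the CCR4b RNAi array. Counting only genes with both arrays above the floor, 3 of 14 glycolytic members (21.4%) and 14 of 32 members (43.8%) were at least 1.5-fold higher, against 10.4% of 10060 genes. Gpi1 and Eno1 were not named by any probe set in the annotation used here, so the isomerase step and the main enolase were not analysed.

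At glucose entry, Slc2a1, the basal glucose transporter GLUT1, read 357 and 380.0 units (log2 ratio 0.089), with 0.24 and -0.24 on its other probe sets. Slc2a3 and Slc16a3, a second glucose transporter and the lactate exporter MCT4, were below the floor on both arrays. Transport thus gave 1 measured gene, without a difference larger than the disagreement between its probe sets. At the hexokinase step, Hk2, the inducible isoform, read 69.0 and 113 units (1.64-fold higher), and Hk1, the housekeeping isoform, read 89.2 and 114 units (1.28-fold higher, 1.37-fold on its second probe set). Both hexokinases were higher, and Hk2 was past the 1.5-fold mark.

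The 3 phosphofructokinase genes, which carry out the committed step, differed from each other. Pfkl, the liver-type subunit, read 93.1 and 190 units, a 2.04-fold difference (log2 ratio 1.03), with 2.07-fold on its second probe set and at least 1.76-fold on a dim one. Pfkm, the muscle type, read 103 and 120 units (1.16-fold higher). Pfkp, the platelet type, read 40.0 and 34.3 units (1.17-fold lower), but 12.7 and 21.7 units on another probe set (1.71-fold higher). Of these isoforms, only Pfkl was past 1.5-fold on its brightest probe set, and its probe sets gave one answer whereas those of Pfkp did not. Pfkfb3 makes the allosteric activator of phosphofructokinase. Its control signal of 4.90 units lay below the floor and its CCR4b RNAi signal was 15.5 units, a difference of at least 1.92-fold, with at least 1.37-fold on its second probe set. Pfkfb4 read 21.5 and 21.2 units, nearly equal.

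The abundant enzymes of the lower pathway showed small differences. Aldoa, aldolase A, read 886 and 1110.0 units (1.25-fold higher), and its 5 probe sets spanned log2 ratios from -0.0030 to 0.66; all 5 are open to cross-hybridisation by their identifiers. Tpi1, triose phosphate isomerase, read 1123 and 1409 units (1.25-fold), with 1.28-fold and 1.21-fold on the other probe sets. Pgam1, phosphoglycerate mutase, read 811 and 1054 units (1.30-fold higher). These log2 ratios of 0.33 to 0.38 exceed the robust SD of 0.30 between probe sets of one gene by little. Among genes of like signal, whose median was -0.17, they lay at percentiles 88.6 to 90.1.

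Pgk1, phosphoglycerate kinase, read 2138 and 2158 units (log2 ratio 0.013), with -0.033 and 0.26 on its other probe sets. Pkm, pyruvate kinase, read 824 and 728 units (1.13-fold lower). The ATP-producing kinases of the pathway were therefore within 0.30 log2 units of 0. Ldha, lactate dehydrogenase A, read 1157 and 1654 units (1.43-fold higher, log2 ratio 0.52), just under the 1.5-fold mark. Eno2, the enolase isoform first known from neurons, read 23.5 and 55.0 units, a 2.34-fold difference (log2 ratio 1.23) and the highest ratio among the glycolytic enzymes. Aldoc, a brain aldolase, stayed below the floor.

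Glycolytic genes outside the list were centred near equal signal. Of 12 further measured glycolytic isoenzymes and transporters, 0 passed 1.5-fold upward and 1 (8.33%) downward, against 11.3% and 14.6% of all genes. Their median log2 ratio was -0.051, with 0.0042 after quantile normalization and 0.042 after loess correction, and 7 of 12 lay above the median of genes of like signal. Gapdh, the step between Tpi1 and Pgk1, read 4004 and 3802 units (log2 ratio -0.075). Ldhb, the other main lactate dehydrogenase subunit, was lower by 0.028 to 0.23 log2 units on its 4 probe sets. Bpgm, which diverts a glycolytic intermediate to bisphosphoglycerate, was lower on each of its 3 probe sets, at 49.9 and 20.9 units on the brightest (2.38-fold lower).

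The measured genes of the pentose phosphate pathway, which branches from glycolysis at glucose phosphate, lay on the other side of 0. All 6 measured genes were lower, 3 of them by at least 1.5-fold, against 14.6% of all genes, and the median log2 ratio was -0.59. G6pdx, also among the 7 genes listed for this pathway, was not named by any probe set in the annotation used and was not analysed. Tkt, transketolase, read 1414 and 704 units (2.01-fold lower), with 2.35-fold lower on its second probe set and a dim other one at 3.38 and 8.54 units. Pgls, which hydrolyses the lactone, was 1.76-fold lower and Taldo1, transaldolase, 1.55-fold lower. Dividing each array by its median put 5 of the 6 at least 1.5-fold lower, where 19.0% of all genes were under that scaling.

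Pyruvate dehydrogenase kinases phosphorylate and inactivate pyruvate dehydrogenase, which turns pyruvate into acetyl-CoA inside mitochondria, and the 4 isoforms split into a pair that was higher and a pair that was not. Pdk1, a classical HIF target, read 172 and 265 units (1.54-fold higher). Its other probe sets gave 1.73-fold, 4.02-fold (12.7 and 50.9 units) and at least 1.68-fold. Pdk4, induced by fasting and by FOXO factors, read 193 and 457 units on its single probe set, a 2.37-fold difference (log2 ratio 1.25). Pdk2 read 18.5 and 18.2 units (log2 ratio -0.020), and Pdk3 read 127 and 106 units (1.20-fold lower). Of 10 measured genes of the pyruvate dehydrogenase complex, its phosphatases and pyruvate import or carboxylation, 9 were below 0, where 44.0% of all genes were above it, and 3 were above the median of genes of like signal. The lowest was Pdhx, a subunit that anchors the complex, at 63.0 and 33.0 units (1.91-fold lower), and it alone was past 1.5-fold, 1 of 10 (10.0%) against 14.6% of all genes. Their median log2 ratio was -0.31, and -0.16 relative to genes of like signal.

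The listed HIF targets outside glycolysis, chosen with earlier results of these data known, had the larger differences. Of 12 measured genes, 7 (58.3%) were at least 1.5-fold higher, against 11.3% of all genes, and 4 (33.3%) at least 2-fold, against 3.74%. At 1.5-fold 0 were lower, against 14.6%. The median log2 ratio was 0.62 (1.54-fold). This median was 0.29 log2 units above that of the glycolytic members. The difference between the medians was between 0.27 and 0.30 under the 8 alternative processings. Without Depp1, left out after its value was seen, 6 of 11 were at least 1.5-fold higher and the median was 0.61.

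Both secreted factors were at least 2-fold higher on their brightest probe sets. Adm encodes adrenomedullin, a vasodilator peptide, and read 158 and 500.4 units on its brightest probe set (3.17-fold higher, log2 ratio 1.66). Its second probe set, which is not open to cross-hybridisation, read 131 and 359.5 units (2.75-fold). Vegfa, the main angiogenic factor, read 24.1 and 51.9 units (2.16-fold), but 15.5 and 20.1 units (1.30-fold) on its dimmer probe set. Both genes were higher on each reading, and the size for Vegfa depends on the probe set.

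Bnip3 and Higd1a, which act at mitochondria, and Depp1 were also higher. Bnip3, a mitophagy receptor of the outer mitochondrial membrane, read 231 and 529.7 units on its single probe set (2.29-fold higher, percentile 99.0 of genes of like signal). Its relative Bnip3l had 3 probe sets, all annotated together with a pseudogene, and is not given a value here. Higd1a, a small inner-membrane protein that acts on respiratory complexes, read 224 and 359.8 units (1.61-fold), with 3.16-fold and at least 1.95-fold on its dimmer probe sets. Depp1, a FOXO- and hypoxia-induced gene linked to autophagy, read 46.6 and 240.0 units (5.15-fold, log2 ratio 2.36). Its second probe set went from 7.95 units, below the floor, to 149 units, at least 18.4-fold higher. Depp1 held the highest ratio of all 1192 genes in its signal class.

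The collagen prolyl hydroxylases were both near 1.5-fold. P4ha1, a catalytic subunit, read 100.1 and 154 units (1.54-fold higher), with 1.51-fold on its second probe set. P4ha2, the other catalytic subunit, read 87.4 and 133 units (1.53-fold). These genes, with Hif1a at 1.51-fold and Pdk1 at 1.54-fold, lie just past the mark, and Ldha at 1.43-fold just short of it. With the same scaling to array medians, the log2 ratios of P4ha1, P4ha2, Hif1a and Pdk1 were 0.53, 0.52, 0.50 and 0.53, all below the 1.5-fold mark of 0.58.

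The HIF prolyl hydroxylases, which form the negative feedback of the pathway, were not past 1.5-fold. Egln1, the main oxygen sensor, read 65.7 and 82.5 units (1.26-fold higher), but 34.0 and 26.7 units (1.27-fold lower) on its second probe set. Egln3, usually among the genes most responsive to HIF, read 11.5 and 8.50 units (1.35-fold lower), close to the floor. The probe sets of Egln1 disagreed, and Egln3 was within 1.5-fold of the floor on both arrays. Ankrd37, a small ankyrin-repeat gene, read 17.3 and 23.1 units (1.33-fold higher). Car9, carbonic anhydrase IX, was below the floor on both arrays.

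Ndrg1 and Ero1a gave divided readings. Ndrg1, a stress-responsive growth regulator, read 127 and 103 units on its brightest probe set (1.23-fold lower); its 5 probe sets had log2 ratios of -0.30, 0.042, 0.23, -0.86 and -0.35. Ero1a, the oxidase that drives disulphide formation in the endoplasmic reticulum and is listed under its older symbol Ero1l, read 77.4 and 76.1 units on its brightest probe set. The remaining pair read 48.8 and 114 units (2.33-fold higher) and 38.2 and 82.0 units (2.15-fold). Counted by the median of its probe sets, Ero1a had a log2 ratio of 1.10 and joined the genes past 1.5-fold.

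Further HIF targets that the list does not hold had a smaller median. Of 23 measured genes, 6 (26.1%) passed 1.5-fold upward and 1 (4.35%) downward, against 11.3% and 14.6% of all genes, with a median log2 ratio of 0.22. The glycolytic members, at 26.7% upward and a median of 0.33, were not below these further targets. The larger differences outside glycolysis thus held for the listed HIF targets only. Both lists were chosen with earlier results of these data known, and the part of that choice in the contrast was not tested. Ak4, a mitochondrial adenylate kinase, read 17.3 and 67.0 units (3.88-fold higher), 2.51-fold on its next probe set, but 11.4 and 5.21 units on another. Fam162a, a mitochondrial protein induced by HIF, read 497 and 980.1 units (1.97-fold). Gbe1, the glycogen branching enzyme, was 1.83-fold higher, from 18.2 to 33.2 units. Tfrc, the transferrin receptor, went the other way at 126 and 42.2 units (2.99-fold lower), and was lower on all 4 of its measured probe sets.

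FOXO targets were set beside the list because Pdk4, Depp1 and Bnip3 answer to FOXO factors as well as to hypoxia. The FOXO list shares Ccng2 with the further HIF targets and Cited2 with the list of HIF regulators. Of 15 measured genes, 3 (20.0%) passed 1.5-fold upward, against 11.3% of all genes, and 0 downward, against 14.6%. Of the 15, 13 were above 0, where 44.0% of all genes were, and the median log2 ratio was 0.34. Fbxo32, a muscle ubiquitin ligase subunit, read 13.2 and 26.9 units (2.03-fold higher). Foxo3, itself a FOXO factor, read 210 and 351 units (1.67-fold), and Txnip, an inhibitor of glucose uptake, 384 and 633 units (1.65-fold). The second probe sets of Foxo3 and Txnip gave 1.75-fold and 1.66-fold.

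**Figure D3:**
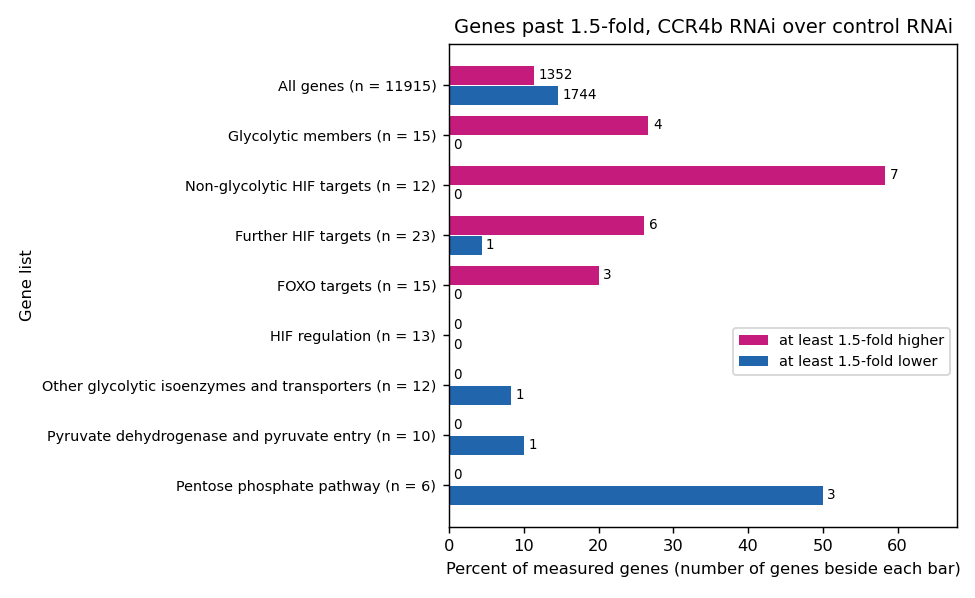
Percent of measured genes at least 1.5-fold higher (magenta) or lower (blue) after CCR4b RNAi (x axis) in all genes and 8 gene lists (y axis), with the number of measured genes in each label and the number of genes past 1.5-fold beside each bar. Among the lists drawn, non-glycolytic HIF targets have the highest share of higher genes (7 of 12) and the pentose phosphate pathway the highest share of lower genes (3 of 6).

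**Figure D4:**
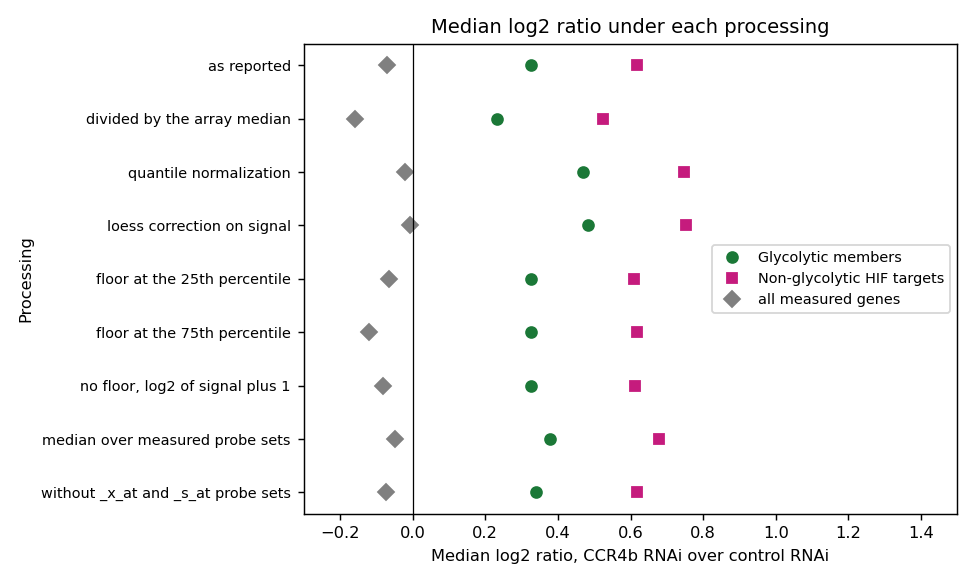
Median log2 ratio of CCR4b RNAi over control RNAi (x axis) under each processing (y axis) for glycolytic members, non-glycolytic HIF targets and all measured genes. The order of the 3 medians is the same under each processing, with all genes lowest and non-glycolytic HIF targets highest.

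Of the 33 measured members, 28 kept the sign of their log2 ratio under each alternative. The others were Slc2a1, Pgk1 and Egln1, all with log2 ratios within 0.33 of 0, and Ndrg1 and Ero1a, whose probe sets disagreed.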

How the data were processed

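Affymetrix whole-genome mouse arrays gave 1 linear intensity per probe set, which the authors obtained from GCOS by global normalization, as stated in the series design. Which GCOS version and target were used is not given in the sources used here, and neither are detection calls. The 45101 probe sets include 34958 with 1 gene symbol, 932 with several and 9211 unnamed here; only the first kind was used, and 34897 of them matched RefSeq (GRCm38.p6). Ero1l was updated to Ero1a.

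Signals below the 50th percentile of both arrays (8.07 units) were raised to it, and the log2 ratio (CCR4b RNAi over control) was taken; a ratio with 1 array below the floor is a bound. Where a gene had several probe sets, the brightest by mean log2 signal represented it. Thresholds were 1.5-fold and 2-fold. With 1 array per group no test was possible, and their number limits the precision. Probe sets with the suffix _x_at or _s_at are open to cross-hybridisation. From each list beyond the members, up to 3 genes per direction past 1.5-fold and above the floor on both arrays were named, plus Gapdh, the targeted gene and, chosen after their values were seen, Ldhb, Vhl, Hif1an, Hif3a and Arnt2; Actb served as a quality check. Members and lists were chosen with earlier results of these data known. Alternatives were division by the array median, quantile and loess normalization, floors at the 25th and 75th percentile, a pseudocount of 1 without a floor, the median over probe sets, and probe sets without those suffixes. Promoter windows are from RefSeq. Scripts used Python 3.11.15, pandas 2.3.3 and statsmodels 0.14.6 and were tested on simulated data. A planned comparison of paralogous proteins was not run.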

Additional observations from a re-analysis of the deposited data

How the results depend on the processing

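Without a replicate, the values have no error beyond the disagreement between probe sets, signal over background limits the dim genes, and a ratio with 1 array below the floor depends on that floor. No paired analysis was possible because each group holds 1 array and the labels give no replicate numbers. Of 258 gene values recomputed under alternatives, 248 moved by less than 0.30 log2 units, the robust SD between probe sets of one gene, and 10 moved by more. The sign changed in 8 of the 258, all in 5 members with log2 ratios within 0.33 of 0 as reported; 0 of the values past 1.5-fold changed sign. Of 332 list values, 42 moved. The cause was not tested. Quantile normalization moved the median log2 ratio to 0.52 for all members, 0.47 for glycolytic members, 0.75 for non-glycolytic HIF targets, -0.16 for pyruvate entry, -0.46 for the pentose phosphate pathway, -0.039 for HIF regulation, 0.34 for further HIF targets and 0.46 for FOXO targets. Loess correction gave 0.54, 0.48, 0.75, -0.16, -0.46, -0.028, 0.34 and 0.46 for the same lists, and 1.14 for HIF subunits. With the floor at the 75th percentile the median was 0.53 for all members, 0.62 for pyruvate dehydrogenase kinases and -0.19 for other glycolytic genes. Of these other glycolytic genes 0 were 1.5-fold lower, against 14.1% of all genes. At that floor 1 glycolytic member was at least 2-fold higher, against 1.73% of all genes. With the floor at the 25th percentile, 19.8% of all genes were 1.5-fold higher and 21.6% lower (11.0% each way at 2-fold); of 38 members, 18 of them glycolytic, 2 were 1.5-fold lower and 1 2-fold lower, all of them glycolytic, 4 glycolytic members were 2-fold higher, the HIF subunit median was 0.60, other glycolytic genes had 2 higher and 2 lower, and further HIF targets had 2 lower. Division by the array median left 1 glycolytic member 2-fold higher, and 1 HIF subunit and 1 pyruvate dehydrogenase kinase 1.5-fold higher, with 3 pyruvate entry genes and 5 pentose phosphate genes 1.5-fold lower. Under that division 3.05% of all genes were 2-fold higher, 9.09% 1.5-fold higher and 19.0% 1.5-fold lower. The median over probe sets gave 0 HIF subunits 1.5-fold higher, against 10.2% of all genes. It gave a HIF subunit median of 0.49 and a HIF regulation median of -0.020. With a pseudocount of 1 and no floor, other glycolytic genes had 1 higher and further HIF targets 2 lower. Under that setting 15.3% of all genes were 1.5-fold higher and 18.1% lower. Without probe sets open to cross-hybridisation, 1 HIF regulation gene was 1.5-fold higher, against 11.2% of all genes. With ACGTG as the only motif, 52.3% of the members' windows and 21.5% of those of measured genes held a match. Leaving out Depp1 and counting only genes above the floor on both arrays were chosen after seeing the data.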
